A study of Mus musculus with 15 samples.

Results

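The 67 genes described here encode the glycosyltransferases that start, extend, branch and cap mucin-type and Lewis glycans. They are the protein-coding genes of the GENCODE M21 annotation (mouse genome GRCm38) whose symbols belong to the Fut, B3galt, B4galt, B3gnt, St3gal, St6gal, Gcnt, Galnt or C1galt1 families. They were chosen by name among 34554 genes and added sequences, and 57 of the 67 had enough reads to be tested. The 67 genes carry 66 symbols, because 2 gene identifiers share the name St6galnac2.

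RNA was measured in organoids from normal mouse pancreatic ducts, cultures of duct epithelium grown in Matrigel, in which doxycycline switches on synthesis of CA19-9. The lines A217, A220 and A225, called inducible, hold all alleles that CA19-9 synthesis needs, and the lines A218 and A223, called negative, lack 1 of them, which the labels do not name. The 5 lines each gave a library with 0, 4 and 24 h of drug (1 µg/ml doxycycline), so the negative lines received the drug too, and each group holds 3 inducible or 2 negative libraries. The labels give no strain, age or number of animals behind a line, so the p-values rest on the variation among these lines, which may be technical.

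Mucin-type glycans begin when a polypeptide GalNAc transferase of the Galnt family places GalNAc on a serine or threonine. The core 1 synthase adds galactose, Gcnt enzymes add branches, and B3gnt enzymes with galactosyltransferases lengthen the chains. Fucosyltransferases and sialyltransferases then cap the ends. CA19-9 is sialyl Lewis a, a type 1 chain with a sialic acid and a fucose at its end, and wild-type mice do not make it because they lack a working Lewis fucosyltransferase. Pancreatic ducts carry mucins on their surface.

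The libraries held between 47915632 and 59411540 estimated counts. EGFP, an added sequence, was at 0.341 to 0.737 counts per 1000000 (CPM) in the inducible lines at 0 h and at 259 to 340 CPM at 4 h, and it stayed at or below 0.345 CPM in the negative lines. The transactivator rtTA3 (75.6 to 201 CPM) and the red fluorescent protein mKate2 (87.6 to 216 CPM) were present in all 15 libraries, so both genotypes carry them. The 16 human transcripts added to the reference summed to 695 to 918 CPM in the inducible lines at 4 h and to 731 to 1046 CPM at 24 h, against at most 1.99 CPM in the negative lines, so the induced libraries matched their labels. Of 12 duct markers, 11 averaged at least 1 TPM (transcripts per 1000000, a level per transcript length), and their summed level was 9995 to 16590 TPM. The sums of the marker lists for acinar cells (1.74 to 3.37 TPM), endocrine cells (12.5 to 20.8 TPM), mesenchyme (0.13 to 2.51 TPM), immune cells (1.69 to 2.93 TPM) and endothelium (3.11 to 5.67 TPM) were far below it. Ins1, Ins2, Gcg, Ppy and Neurod1 of the endocrine list, Cpa1, Amy2b, Pnlip and Ptf1a of the acinar list and Dcn, Lum, Pdgfra and Pdgfrb of the mesenchyme list were below 0.1 TPM in every library. Pdx1 of the endocrine list was at 12.5 to 20.8 TPM and carried nearly all of that list's sum. Cela1 of the acinar list (1.27 to 2.77 TPM), Cd68 of the immune list (1.53 to 2.74 TPM) and Pecam1 of the endothelium list (2.46 to 4.98 TPM) carried most of theirs. The duct marker below 1 TPM on average was Cftr, at 0.233 to 0.914 TPM.

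Untreated duct organoids expressed a small part of this enzyme set at high level. At 0 h the summed level of all members was 1196 TPM on average over the 5 lines, with a range of 1155 to 1245 TPM, and the 10 members with the highest levels held 65.0% of it. In all, 38 members averaged at least 1 TPM, 24 at least 10 TPM, and 14 averaged below 0.1 TPM. The 10 highest were St3gal4, B3gnt3, Galnt1, Galnt3, Fut2, St3gal6, C1galt1c1, Gcnt3, Galnt2 and B4galt3. They ranged from 250.4 ± 17.9 TPM (SD, n = 5) for St3gal4 to 37.3 ± 2.02 TPM (SD, n = 5) for B4galt3, and the next, C1galt1, at 37.1 ± 1.49 TPM (SD, n = 5), did not differ from B4galt3 beyond that spread.

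In several role classes a single enzyme supplied most of the transcripts at 0 h. St3gal4 held 72.6% of the TPM of the St3gal family, B3gnt3 74.8% of that of the chain-lengthening B3gnt enzymes, and Fut2 63.6% of the fucosyltransferases. St6gal1 held 84.3% of the St6gal and St6galnac families and Gcnt3 53.5% of the branching enzymes. The GalNAc transferases were spread more evenly, with 25.01% for Galnt1, and so were the galactosyltransferases, with 25.6% for B4galt3.

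**Figure D1:**
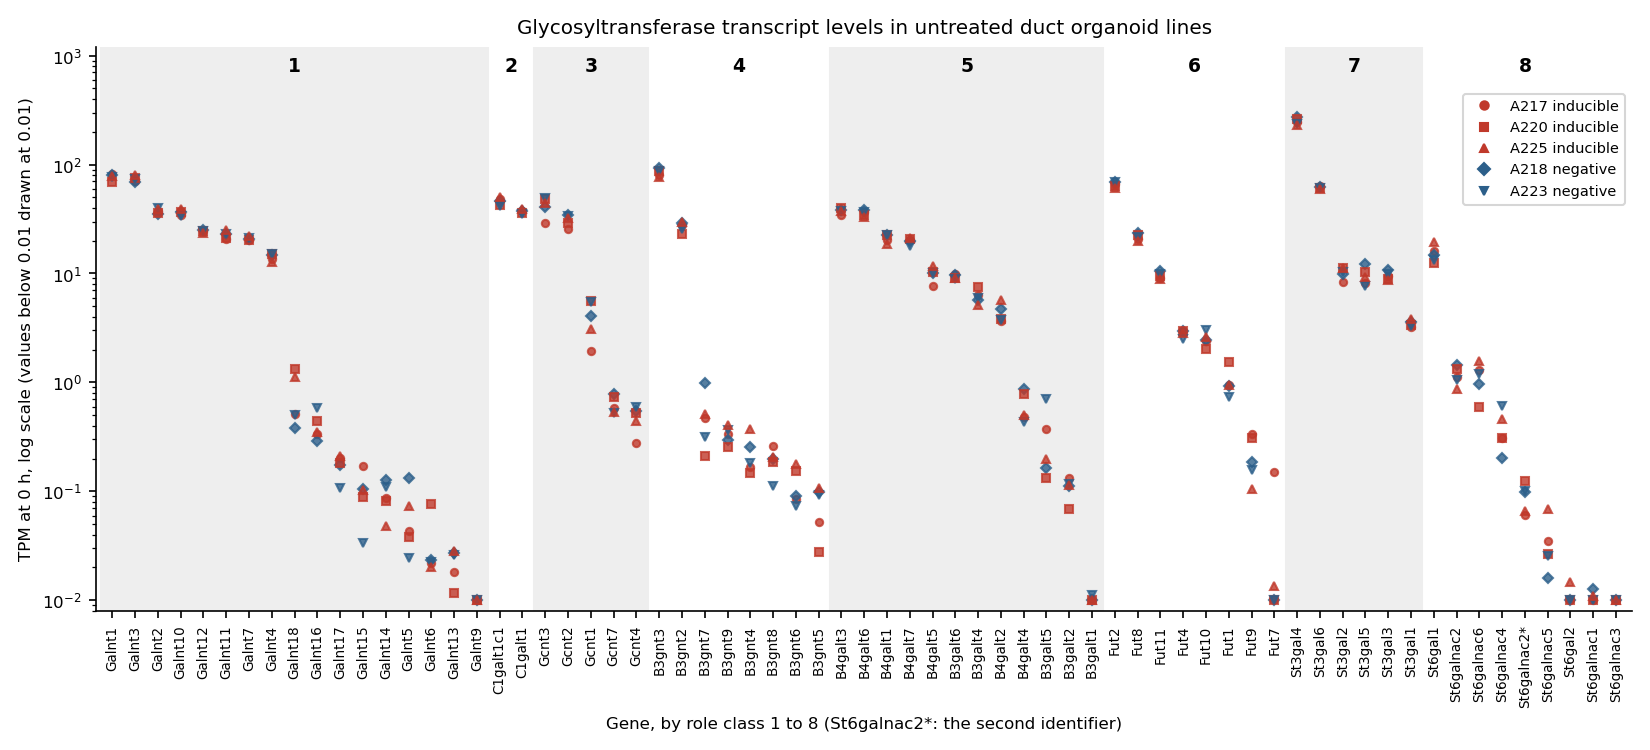
Level of each of the 67 genes in TPM (log axis) in the 5 untreated lines, with 1 point per line (red inducible, blue negative) and values below 0.01 TPM drawn at 0.01. The role classes are 1 polypeptide GalNAc transferases, 2 core 1 synthase and its chaperone, 3 branching enzymes, 4 chain-lengthening B3gnt enzymes, 5 galactosyltransferases, 6 fucosyltransferases, 7 St3gal and 8 St6gal and St6galnac sialyltransferases; St3gal4 stands highest, and most classes fall from a few enzymes above 10 TPM to a tail below 1 TPM.

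The called changes of these enzymes with doxycycline lay between -0.88 (Fut1) and 0.50 (St3gal1) on the log2 scale, and no member was called in opposite directions in the 2 genotypes. A gene was called when edgeR's quasi-likelihood test gave an adjusted p below 0.05 over all 16462 tested features. Without the line as a term, 3 of 57 tested members were called in the inducible lines at 24 h against 0 h, where 4.93% of all features were called: Gcnt2 rose, and Galnt7 and Fut1 fell. In the negative lines at 24 h Galnt7 was called, 1 of 57 members against 3.8% of all features. At 4 h no member was called in the inducible lines (0.298% of all features called), with 0 members at an unadjusted p below 0.05. None was called in the negative lines at 4 h (0.121% of all features called), with 3 members at an unadjusted p below 0.05. DESeq2 gave fewer members an adjusted p. At 4 h it called 0 of 35 such members in the inducible lines (background 1.27%) and 0 of 44 in the negative lines (background 0.759%). At 24 h it called 5 of 49 in the inducible lines (Gcnt2, Galnt7, Fut1, B4galt1 and St3gal1, background 12.5%). In the negative lines at 24 h it called 2 of 49 (Galnt7 and Galnt10, background 10.8%).

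The same lines were sampled at each time, and adding the line as a replicate block to the fit called more members. In the inducible lines it called 20 of 57 at 24 h, against a background of 24.2% of all features (members 35.1%). Of the 20, 12 rose (14% of all features) and 8 fell (10.2% of all features). In the negative lines it called 12 of 57 at 24 h, against 22.5% of all features (members 21.1%), with 6 higher (background 13.6%) and 6 lower (background 8.83%). At 4 h it called 3 members in the inducible lines (background 3.05%) and 3 in the negative lines (background 2.04%). With each line left out in turn, the block fit called 18 members without A217, 9 without A220 and 9 without A225 in the inducible lines at 24 h. The counts without A217 and without A220 include members that were not among the 20. The calls of 7 members, Gcnt2, B4galt1, Galnt10, St3gal5, Gcnt3, St3gal4 and Galnt7, were kept without each line of the inducible genotype. Leaving out A218 or A223 leaves the other negative line without a replicate. Such fits cannot show whether a negative call is replicated, and their calls are not counted here. At 24 h the negative change without A218 and without A223 was 0.37 and 0.29 log2 for Galnt10. It was 0.23 and 0.24 log2 for Gcnt2 and -0.85 and -0.51 log2 for Gcnt3. The same limit holds for every result below that leaves out a negative line or 1 of its libraries.

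The median change of the 57 members at 24 h was -0.03 in the inducible and 0.01 in the negative lines on the log2 scale, beside 0 and 0.01 for all tested features. At 24 h, 17 members were higher in 5 of 5 lines and 13 were lower, against 21.8% and 18.1% of all features. At 4 h, 6 were higher in 5 of 5 lines, against 10.4% of all features, and 15 were lower, against 10.8%.

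The GalNAc transferases, which decide which serines and threonines of a mucin are glycosylated, split at 24 h. Galnt7, a transferase that prefers sites next to existing GalNAc (chr8:57523828-57653032, minus strand, GRCm38), was at 53.4, 54.1 and 57.2 CPM in A217, A220 and A225 at 0 h, 58.3, 58.4 and 56.1 CPM at 4 h and 45.7, 44.6 and 50.2 CPM at 24 h. In A218 and A223 it was at 51.8 and 54.7 CPM, 54.8 and 57.4 CPM and 41.8 and 40.9 CPM at these times. All 5 libraries at 24 h lay below all 10 at 0 and 4 h. The change at 24 h was -0.23 ± 0.06 log2 (SE; edgeR, adjusted p = 0.0349) in the inducible and -0.36 ± 0.07 log2 (SE; edgeR, adjusted p = 0.0124) in the negative lines. Without 1 library the call in the inducible lines was lost without the 0 h library of any of the 3 lines or the 24 h library of A220 (edgeR, adjusted p 0.0641 to 0.119 in these). Without 1 of the 4 negative libraries the negative change ranged from -0.41 to -0.33 log2.

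Galnt10, another transferase with a preference for glycosylated substrates, moved up. From here on, inducible values stand in the order A217, A220 and A225, and negative values in the order A218 and A223. Galnt10 was at 101, 111 and 115 CPM at 0 h and 119.8, 128 and 133 CPM at 24 h in the inducible lines, and at 108 and 93.5 and then 132 and 122 CPM in the negative lines. Each line at 24 h was above every line at 0 h. The change was 0.22 ± 0.03 log2 (SE; edgeR, adjusted p = 0.000584) and 0.34 ± 0.04 log2 (SE; edgeR, adjusted p = 0.000151) with the line as a block. Without the block neither was called (edgeR, adjusted p = 0.104 and 0.0637).

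Galnt11 was called higher with the block in both genotypes, from 34.99, 35.4 and 41.2 to 37.95, 44.7 and 47.2 CPM and from 37.1 and 37.96 to 43.5 and 44.3 CPM, with overlapping lines. Its inducible call was lost without A220. The negative change without A218 and without A223 was 0.21 and 0.23 log2. Galnt1, one of the broadly acting transferases that start mucin glycans, was called higher with the block in the inducible lines, from 200.3, 171 and 188 to 211, 193 and 202 CPM. Its negative lines went from 185 and 176 to 201 and 187 CPM, the difference between the genotypes was not called, and the inducible call was lost when leaving out any 1 of the 3 lines. Galnt4 was called lower with the block in the negative lines, from 49.9 and 50.6 to 41.2 and 42.6 CPM, beside 46.95, 51.6 and 43.5 CPM, then 45.7, 49.1 and 38.5 CPM, in the inducible lines. Its negative change without A218 and without A223 was -0.26 and -0.28 log2. Galnt4 shares exon bases with Poc1b on the same strand, and Galnt2 with the predicted gene Gm20388, so their counts are uncertain. Galnt3, which glycosylates and protects FGF23, stayed at 124 to 157 CPM in the 15 libraries, with no call.

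The core 1 synthase and its chaperone were both abundant. C1galt1, the core 1 synthase, was at 156, 149 and 159.7 CPM at 0 h and 157, 174 and 184 CPM at 24 h in the inducible lines and at 151 and 142 CPM, then 163 and 162 CPM, in the negative lines, with no call. C1galt1c1, called Cosmc, is the chaperone that the synthase needs in order to fold. It went from 43.5, 38.2 and 44.8 to 45.4, 48.5 and 52.99 CPM and from 40.3 and 36.8 to 46.9 and 43.1 CPM. All 5 lines were higher at 24 h, and the block fit called the inducible change (0.21 ± 0.07 log2 SE, edgeR, adjusted p = 0.0279), but not without A220 or without A225 (edgeR, adjusted p = 0.247 and 0.179).

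Among the branching enzymes, the abundant Gcnt3 and Gcnt2 moved in opposite directions. Gcnt3, the mucin-type enzyme that makes core 2 and core 4 branches (chr9:70031496-70038088, minus strand), was at 84.7, 139 and 125 CPM at 0 h, 81.3, 136 and 94.1 CPM at 4 h and 63.4, 97.3 and 88.4 CPM at 24 h in the inducible lines. In the negative lines it was at 115 and 138 CPM, 96.6 and 92.2 CPM and 80.4 and 77.1 CPM. It was lower than at 0 h in 5 of 5 lines at both times, while line A217 began lower than the others, so that the groups overlapped. With the line as a block it fell at 24 h by 0.48 ± 0.08 log2 (SE; edgeR, adjusted p = 0.000666) in the inducible lines and by 0.68 ± 0.09 log2 (SE; edgeR, adjusted p = 0.00027) in the negative lines, a fold of 0.718 and 0.624. Without the block neither was called (edgeR, adjusted p = 0.19 and 0.151). At 4 h the block fit called the fall in the negative lines (-0.42 ± 0.09 log2 SE, edgeR, adjusted p = 0.0377). That change was -0.60 log2 without A218 and -0.25 log2 without A223. The inducible change of -0.17 ± 0.08 log2 (SE; edgeR, adjusted p = 0.283) was not called.

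Gcnt2, the I-branching enzyme that turns linear lactosamine chains into branched ones (chr13:40859754-40960892, plus strand), was higher at 4 h and 24 h in every line. It was at 72.8, 81.2 and 89.3 CPM at 0 h, 83.2, 92.3 and 96.03 CPM at 4 h and 95.3, 103 and 113 CPM at 24 h in the inducible lines. The negative lines gave 88.4 and 91.4 CPM, 89.7 and 94.6 CPM and 105 and 108 CPM. All 5 values at 24 h were above all 5 values at 0 h. The change at 24 h was 0.36 ± 0.08 log2 (SE; edgeR, adjusted p = 0.0241) in the inducible lines. It was lost without the 0 h or 24 h library of A220, the 0 h library of A217 or the 24 h library of A225 (edgeR, adjusted p 0.0708 to 0.111), and held with the block without each line. In the negative lines it was 0.24 ± 0.04 log2 (SE; edgeR, adjusted p = 0.00143) with the block and was not called without it (edgeR, adjusted p = 0.169). The block also called a rise in the inducible lines at 4 h (0.16 ± 0.04 log2 SE, edgeR, adjusted p = 0.0263), which was not called when leaving out any 1 of the 3 lines (edgeR, adjusted p 0.0672 to 0.289).

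The 2 abundant transcripts of Gcnt2 differed. The transcript Gcnt2-203 held 59.1% of the gene's TPM and went from 14.6, 16.4 and 18.3 TPM at 0 h to 17.7, 20.3 and 20.8 TPM at 4 h and 20.5, 22.8 and 24.9 TPM at 24 h in the inducible lines, and from 16.9 and 19.1 TPM at 0 h to 19.8 and 22.2 TPM at 4 h and 23.1 and 25.01 TPM at 24 h in the negative lines. It was higher in 5 of 5 lines at both times. Gcnt2-201, which starts further downstream and held 38.3%, was at 10.7, 12.2 and 13.7 TPM at 0 h and 11.8, 13.01 and 14.8 TPM at 24 h in the inducible lines, and at 14.98 and 14.2 TPM, then 13.1 and 12.2 TPM, in the negative lines, higher in all 3 inducible lines and lower in both negative lines. These are kallisto's assignments of reads between transcripts that share exons and were not tested.

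**Figure D2:**
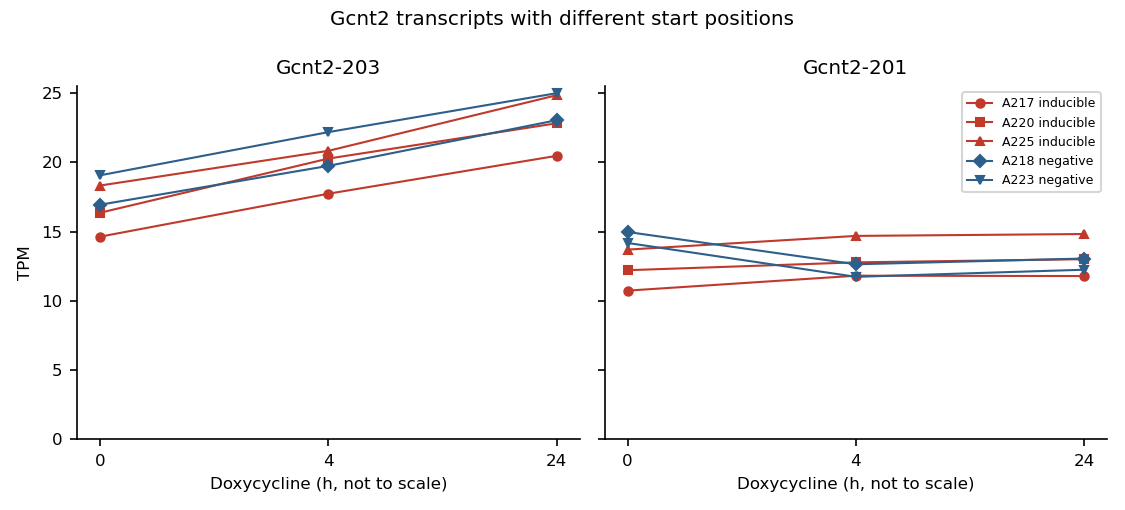
TPM of the transcripts Gcnt2-203 and Gcnt2-201 at 0, 4 and 24 h of doxycycline, with 1 line per organoid line (red inducible, blue negative; hours are not drawn to scale). Gcnt2-203 climbs in all 5 lines to 20.5 to 25.01 TPM at 24 h, while Gcnt2-201 goes up in the 3 inducible lines and down in the 2 negative ones.

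The sequences around both start sites are given because the 2 transcripts moved differently (RefSeq, GRCm38.p6; 250 bases before to 50 after the start, plus strand). They are chr13:40859518-40859817 for Gcnt2-203 and chr13:40917384-40917683 for Gcnt2-201. Capitals mark matches to GGGCGG, a GC box, the one match in either window among 6 motifs searched on both strands. The others were TATAAA (the TATA box), CCAAT (the CCAAT box), CACGTG (an E-box), TGANTCA (the AP-1 type) and TGACNNNGC (the antioxidant response type); the last 2 of these can match the same bases.
Gcnt2-203 start: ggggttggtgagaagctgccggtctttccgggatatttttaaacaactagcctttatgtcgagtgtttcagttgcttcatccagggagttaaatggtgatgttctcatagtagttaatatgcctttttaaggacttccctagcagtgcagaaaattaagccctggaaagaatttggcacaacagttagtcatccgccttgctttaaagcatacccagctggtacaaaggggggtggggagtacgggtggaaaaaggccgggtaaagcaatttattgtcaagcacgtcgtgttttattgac
Gcnt2-201 start: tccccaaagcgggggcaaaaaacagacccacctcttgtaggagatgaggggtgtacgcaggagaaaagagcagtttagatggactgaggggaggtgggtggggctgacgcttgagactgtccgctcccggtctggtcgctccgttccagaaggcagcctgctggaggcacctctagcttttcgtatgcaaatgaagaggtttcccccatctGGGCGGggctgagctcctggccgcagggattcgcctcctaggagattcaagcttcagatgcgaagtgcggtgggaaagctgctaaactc
The window of Gcnt2-203 had no match to any of the 6 and a GC content of 44.7%, and that of Gcnt2-201 had 1 GC box and 58% GC. GGGCGG occurred in 35.7% of 32851 RefSeq promoters and in 36 of the 68 windows (52.9%) found for the members, TATAAA in 13.6% and 1 of 68, CCAAT in 37.4% and 20 of 68, CACGTG in 7.2% and 5 of 68, TGANTCA in 7.8% and 4 of 68, and TGACNNNGC in 12.4% and 11 of 68. A match is a description of letters and not a binding site. RefSeq windows were found for 48 of the 66 symbols.

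Gcnt1, the widely expressed core 2 enzyme, differed more between lines than with time, at 5.14, 16.6 and 7.80 CPM at 0 h and 7.70, 18.9 and 8.44 CPM at 24 h in the inducible lines and 11.9 and 15.6 CPM, then 15.4 and 18.3 CPM, in the negative lines. The block fit called the inducible change (0.28 ± 0.09 log2 SE, edgeR, adjusted p = 0.0383), but without the block it was far from a call (edgeR, adjusted p = 0.795), and it was not called with the block when leaving out any 1 of the inducible lines. Gcnt4 and Gcnt7 stayed below 1 TPM on average at 0 h and had no call.

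B3gnt3, which extends core 1 glycans with GlcNAc, dipped at 4 h and was near its starting level at 24 h. It was at 163, 178 and 153 CPM at 0 h, 145, 159.7 and 131 CPM at 4 h and 175, 188 and 157 CPM at 24 h in the inducible lines, and at 183 and 171 CPM, 152 and 138 CPM and 181 and 175 CPM in the negative lines. Every line was lower at 4 h than at 0 h, and every line was higher at 24 h than at 4 h. The block fit called the dip in the inducible lines (-0.18 ± 0.03 log2 SE, edgeR, adjusted p = 0.0119) and in the negative lines (-0.29 ± 0.04 log2 SE, edgeR, adjusted p = 0.00303). Neither was called without the block (edgeR, adjusted p = 0.664 and 0.626), nor in the inducible lines with the block when leaving out any 1 of them (edgeR, adjusted p 0.0711 to 0.138). The negative dip without A218 and without A223 was -0.32 and -0.27 log2. B3gnt2, the main poly-lactosamine enzyme, was called higher with the block in the negative lines at 24 h (0.28 ± 0.08 log2 SE, edgeR, adjusted p = 0.0206), from 31.97 and 26.8 to 35.5 and 35.98 CPM, beside 29.6, 29.2 and 29.6 CPM, then 31.1, 36.5 and 31.5 CPM, in the inducible lines. That negative change was 0.41 log2 without A218 and 0.15 log2 without A223. B3gnt2 shares exon bases with the predicted gene Gm28048 on the same strand, so its counts are uncertain. The other 6 B3gnt genes were below 1 TPM on average at 0 h and had no call.

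The mouse gene of B3galt5, a galactosyltransferase that makes type 1 chains, was almost silent. B3galt5, which adds the galactose of the Lewis a backbone, was at 0.474, 0.458 and 0.201 CPM at 0 h, 0.284, 0.223 and 0.222 CPM at 4 h and 0.336, 0.171 and 0.162 CPM at 24 h in the inducible lines, and at 0.193 and 0.567 CPM, 0.345 and 0.617 CPM and 0.115 and 0.234 CPM in the negative lines. Its level at 0 h was 0.316 ± 0.238 TPM (SD, n = 5), and the genotypes overlapped at 0 h and 24 h, while at 4 h both negative values were above the 3 inducible ones. A B3galt5 transcript without a coding label, B3galt5-203, held 69.7% of its TPM on average, with a range of 0 to 94.4% over the libraries. The gene had 6 to 32 counts per library, so this share is uncertain.

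B4galt1, which makes type 2 chains and, with alpha-lactalbumin, forms lactose synthase, rose at 24 h in the inducible lines, from 54.8, 60.3 and 48.3 to 63.4, 77.8 and 62.9 CPM, after 48.3, 55.9 and 47.9 CPM at 4 h. The negative lines went from 58.8 and 58.1 through 49.1 and 52.2 to 64.2 and 65.1 CPM. All 5 lines at 24 h were above all 5 at 0 h. The block fit gave 0.32 ± 0.05 log2 (SE; edgeR, adjusted p = 0.000312) in the inducible lines, kept without each line, and the fit without the block gave no call (edgeR, adjusted p = 0.069). B4galt5, a lactosylceramide synthase, was called lower with the block in the inducible lines, from 18.9, 20.5 and 27.7 to 16.4, 15.5 and 24.5 CPM, but not without A220 (edgeR, adjusted p = 0.141). The negative lines were also lower, from 27.3 and 17.9 to 24.4 and 15.2 CPM, with no call. B3galt6, which builds the proteoglycan linker, was called lower with the block in both genotypes, from 20.9, 19.04 and 18.8 to 20.1, 15.4 and 16.4 CPM and from 20.03 and 18.1 to 15.6 and 14.2 CPM. Its inducible call was lost without A220 or A225. The negative change was -0.36 log2 without A218 and also without A223.

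Fut2, the secretor enzyme that caps chains with fucose, carried most fucosyltransferase transcripts at every time. It was at 86.1, 86.8 and 76.4 CPM at 0 h, 93.9, 93.4 and 75.6 CPM at 4 h and 98.5, 91.9 and 83.8 CPM at 24 h in the inducible lines, and at 91.1 and 86.98 CPM, 90.8 and 84.6 CPM and 96.2 and 88.8 CPM in the negative lines. All 5 lines were slightly higher at 24 h than at 0 h, within the spread between lines. The block fit called the inducible change of 0.14 ± 0.04 log2 (SE; edgeR, adjusted p = 0.0275), but not when leaving out any 1 of the 3 lines (edgeR, adjusted p 0.0794 to 0.188).

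Fut1, its paralog that makes blood group H, had the largest fall of a called member, at a low level. It was at 1.25, 1.65 and 1.11 CPM at 0 h, 1.36, 1.30 and 1.77 CPM at 4 h and 0.692, 0.900 and 0.587 CPM at 24 h in the inducible lines (chr7:45617289-45621059, plus strand), and at 1.21 and 1.02 CPM, 1.89 and 1.85 CPM and 0.803 and 0.897 CPM in the negative lines. Every value at 24 h was below every value at 0 h and 4 h. The change at 24 h was -0.88 ± 0.23 log2 (SE; edgeR, adjusted p = 0.0472) in the inducible lines, where leaving out any 1 of the 6 libraries ended the call (edgeR, adjusted p 0.0581 to 0.177). In the negative lines it was -0.40 ± 0.28 log2 (SE; edgeR, adjusted p = 0.459). The difference of the responses was -0.48 ± 0.36 log2 (SE; edgeR, adjusted p = 1). Fut1 and Fut2 are similar neighbouring genes, so the share of reads kallisto gave to Fut1 is uncertain.

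Fut4, a fucosyltransferase of Lewis x synthesis, was at 8.19, 8.01 and 7.65 CPM at 0 h and 7.62, 6.56 and 5.36 CPM at 24 h in the inducible lines and at 7.86 and 6.57 CPM, then 6.35 and 5.48 CPM, in the negative lines. All 5 lines were lower at 24 h. The block fit called the inducible change (-0.30 ± 0.09 log2 SE, edgeR, adjusted p = 0.0279), but not without A220 or without A225 (edgeR, adjusted p = 0.119 and 0.237). Fut8, which adds core fucose to N-glycans, went from 39.5, 42.5 and 36.98 to 44.2, 46.6 and 41.9 CPM and from 43.1 and 39.7 to 43.2 and 43.3 CPM, and was called higher with the block in the inducible lines, though not when leaving out any 1 of them. Fut10 was called lower with the block in both genotypes, by -0.40 ± 0.11 log2 (SE; edgeR, adjusted p = 0.0191) and -0.46 ± 0.14 log2 (SE; edgeR, adjusted p = 0.0263). Its inducible call was lost without A220 or A225. The negative change without A218 and without A223 was -0.58 and -0.36 log2. Fut9 (0.22 TPM) and Fut7 (0.03 TPM), further fucosyltransferases of Lewis x-type structures, had low levels per length at 0 h. Fut7 was near the floor. Fut9 was tested and had no call, at 2.67, 1.38 and 0.654 CPM at 0 h in the inducible lines and 1.12 and 1.02 CPM in the negative lines, so A217 stood highest.

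St3gal4, a sialyltransferase that caps lactosamine ends and the most abundant transcript of the 67, was lower at 4 h and 24 h in every line (chr9:35046576-35119268, minus strand). It was at 278, 282 and 257 CPM at 0 h, 236, 234 and 207 CPM at 4 h and 255, 235 and 193 CPM at 24 h in the inducible lines, and at 300.1 and 263 CPM, 245 and 195 CPM and 259 and 192 CPM in the negative lines. At 4 h all 5 values were below all 5 at 0 h, and at 24 h they overlapped. With the line as a block, edgeR gave -0.27 ± 0.05 log2 (SE; edgeR, adjusted p = 0.0131) at 4 h and -0.27 ± 0.05 log2 (SE; edgeR, adjusted p = 0.00263) at 24 h in the inducible lines, and -0.36 ± 0.06 log2 (SE; edgeR, adjusted p = 0.0117) and -0.33 ± 0.06 log2 (SE; edgeR, adjusted p = 0.00254) in the negative lines. Without the block none of the 4 was called (edgeR, adjusted p 0.662, 0.249, 0.735 and 0.257). With the block, the 24 h call in the inducible lines was kept without each line, and the 4 h call was lost without A220 or A225 (edgeR, adjusted p = 0.156 and 0.0672). The negative change without A218 and without A223 was -0.44 and -0.29 log2 at 4 h and -0.46 and -0.21 log2 at 24 h.

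Its main transcript, St3gal4-201, held 76.5% of the gene's TPM and went from 190, 188 and 180.05 TPM at 0 h to 169, 158 and 133 TPM at 24 h in the inducible lines, and from 211 and 186 to 173 and 132 TPM in the negative lines. It was lower in 5 of 5 lines at 4 h and at 24 h. The minor St3gal4-203 was at 6.57 to 10.5 TPM at 0 h and at 8.79 to 16.8 TPM at 24 h, higher in 5 of 5 lines. The window of the main transcript's start is shown because that transcript was lower in every line (RefSeq, GRCm38.p6, chr9:35116815-35117114, minus strand). Capitals mark CCGCCC, which is GGGCGG read on the other strand.
St3gal4-201 start: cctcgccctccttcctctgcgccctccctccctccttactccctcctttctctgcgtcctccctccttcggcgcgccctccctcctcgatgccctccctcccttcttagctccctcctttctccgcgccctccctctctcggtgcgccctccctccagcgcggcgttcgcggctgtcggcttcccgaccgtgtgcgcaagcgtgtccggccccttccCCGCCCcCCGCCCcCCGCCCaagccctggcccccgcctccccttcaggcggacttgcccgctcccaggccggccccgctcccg
It held 3 GC boxes, none of the other 5 motifs, and 74% GC.

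The other St3gal enzymes were less abundant. St3gal1, which sialylates core 1, was at 10.9, 11.3 and 12.7 CPM at 0 h, 10.3, 10.9 and 14.1 CPM at 4 h and 11.9, 16.8 and 20.7 CPM at 24 h in the inducible lines, and at 11.7 and 10.7 CPM, 10.6 and 10.7 CPM and 16.5 and 15.1 CPM in the negative lines. All 5 lines were higher at 24 h, A217 least. The block fit gave 0.49 ± 0.09 log2 (SE; edgeR, adjusted p = 0.00219) in the inducible and 0.50 ± 0.11 log2 (SE; edgeR, adjusted p = 0.00674) in the negative lines. Neither was called without the block (edgeR, adjusted p = 0.0948 and 0.186). With the block the inducible call was lost without A225 (edgeR, adjusted p = 0.0602). The negative change was 0.49 log2 without A218 and also without A223.

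St3gal5, the GM3 synthase of gangliosides, went from 11.8, 14.97 and 13.1 to 13.6, 21.8 and 20.2 CPM in the inducible lines and from 16.8 and 11.1 to 17.8 and 14.4 CPM in the negative lines. The block fit called the inducible change, 0.46 ± 0.08 log2 (SE; edgeR, adjusted p = 0.00154), which was kept without each line. St3gal6 (66.2, 65.8 and 62.2 CPM at 0 h, 66.6, 67.6 and 68.5 CPM at 24 h in the inducible lines and 66.9 and 65.9, then 67.4 and 59.9 CPM in the negative lines) caps type 2 chains and had no call. St3gal3, which caps type 1 chains in the making of sialyl Lewis a, had no call either, at 13.9, 12.7 and 12.1 CPM at 0 h and 13.2, 12.99 and 11.96 CPM at 24 h in the inducible lines and 14.2 and 12.8 CPM, then 11.6 and 11.6 CPM, in the negative lines. St3gal6 shares exon bases with Dcbld2 on the opposite strand, and no source used here states whether kallisto counted by strand. In all, 23 tested members share exon bases with a gene on the opposite strand and 5 with one on the same strand.

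St6gal1, which caps N-glycans, was called higher with the block in both genotypes at 24 h, from 47.2, 36.3 and 54.8 to 49.3, 41.1 and 64.9 CPM and from 41.1 and 36.6 to 47.3 and 42.9 CPM. The changes of 0.16 ± 0.05 log2 (SE; edgeR, adjusted p = 0.0245) and 0.22 ± 0.06 log2 (SE; edgeR, adjusted p = 0.0185) were smaller than the spread between the inducible lines. Its inducible call was lost without A220 or A225. The negative change without A218 and without A223 was 0.22 and 0.20 log2. St6galnac1, which makes sialyl-Tn, and St6gal2 were among the 10 members that were not tested. None of these 10 passed 0.252 CPM or 15 counts in any library.

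**Figure D3:**
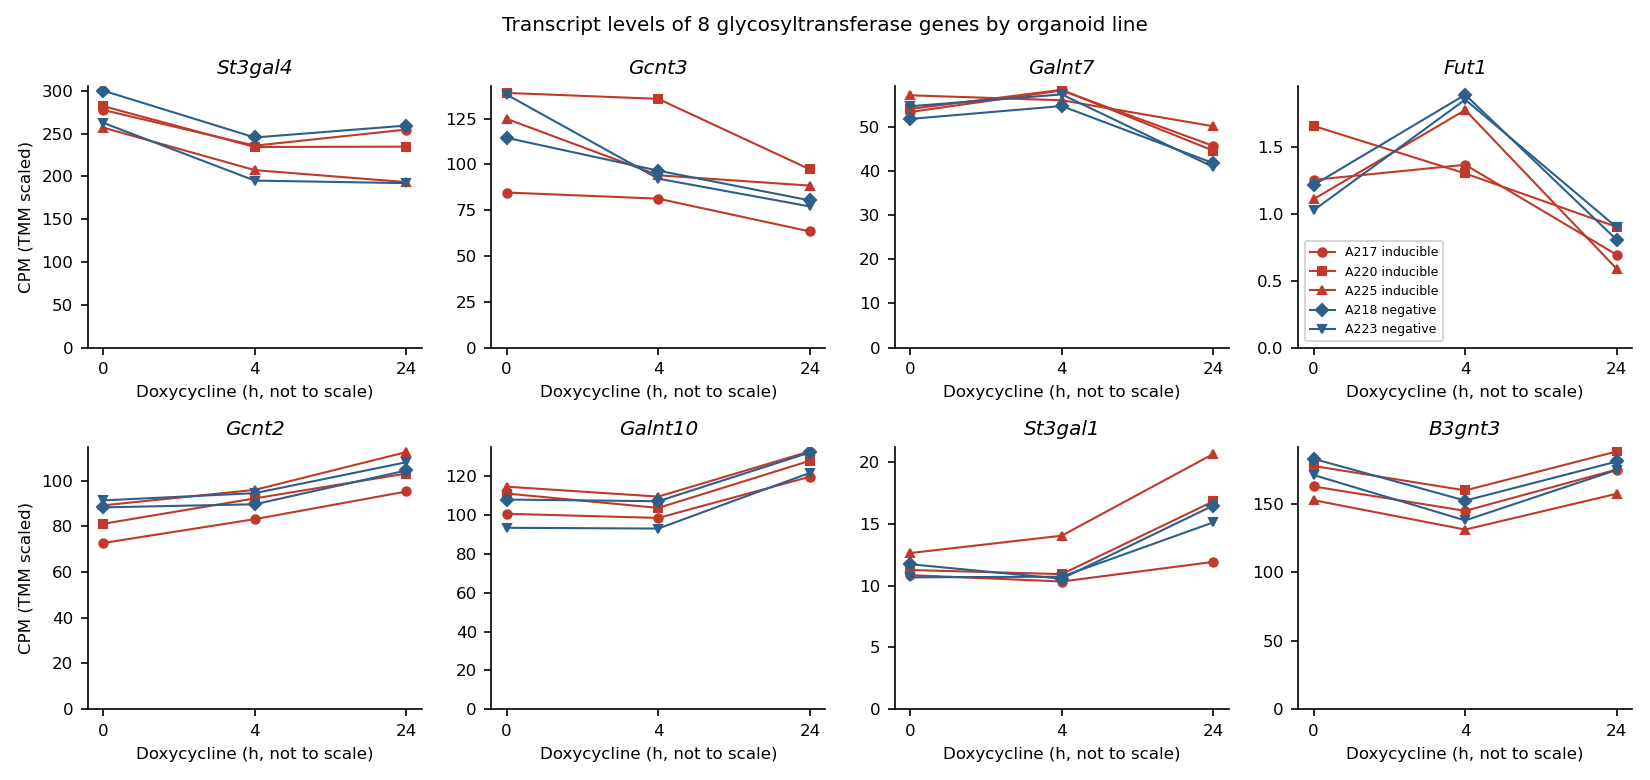
TMM-scaled CPM of 8 members at 0, 4 and 24 h of doxycycline (hours not to scale), with 1 line per organoid line, red inducible and blue negative. St3gal4, Gcnt3, Galnt7 and Fut1 end lower at 24 h than at 0 h in all 5 lines, Gcnt2, Galnt10 and St3gal1 end higher in all 5, and B3gnt3 dips at 4 h.

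No member was called for a difference between the genotypes in its response to doxycycline. For the difference of the 4 h responses and of the 24 h responses edgeR called 0 of 57 members without the block, with 0 at an unadjusted p below 0.05, against 0.0121% of all features in each. DESeq2 also called 0 in each (background 0.02%). With the block edgeR called 0 of 57, with 2 at an unadjusted p below 0.05 at 4 h (background 0.0182%) and 5 at 24 h (background 0.0243%). Among the 31 members with a mean of at least 10 CPM, the difference at 24 h, inducible minus negative, ranged from -0.19 (Galnt2) to 0.23 (St3gal5) on the log2 scale with the block. The 95% intervals of these 31 differences reached from -0.46 (Galnt2) to 0.56 (St3gal5) with the block, and from -1.60 to 1.52, both Gcnt1, without it. Gcnt3 differed by 0.20 ± 0.12 log2 (SE; edgeR, adjusted p = 0.692). The lowest unadjusted p with the block at 24 h belonged to a member below 10 CPM, Galnt18 of the GalNAc transferase family, named here after its values were seen. It was at 0.853, 2.19 and 1.81 CPM at 0 h and 0.420, 2.04 and 1.19 CPM at 24 h in the inducible lines and at 0.616 and 0.805 CPM, then 0.976 and 1.05 CPM, in the negative lines, so all 3 inducible lines were lower and both negative lines higher. The difference was -1.03 ± 0.34 log2 (SE; edgeR, adjusted p = 0.547) with the block and -0.92 ± 0.83 log2 (SE; edgeR, adjusted p = 1) without it. Of the 41 members with a mean of at least 1 CPM, 33 changed with the same sign in both genotypes at 4 h and 32 at 24 h (80.5% and 78%, beside 68.3% and 79.3% of all features at that level).

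**Figure D4:**
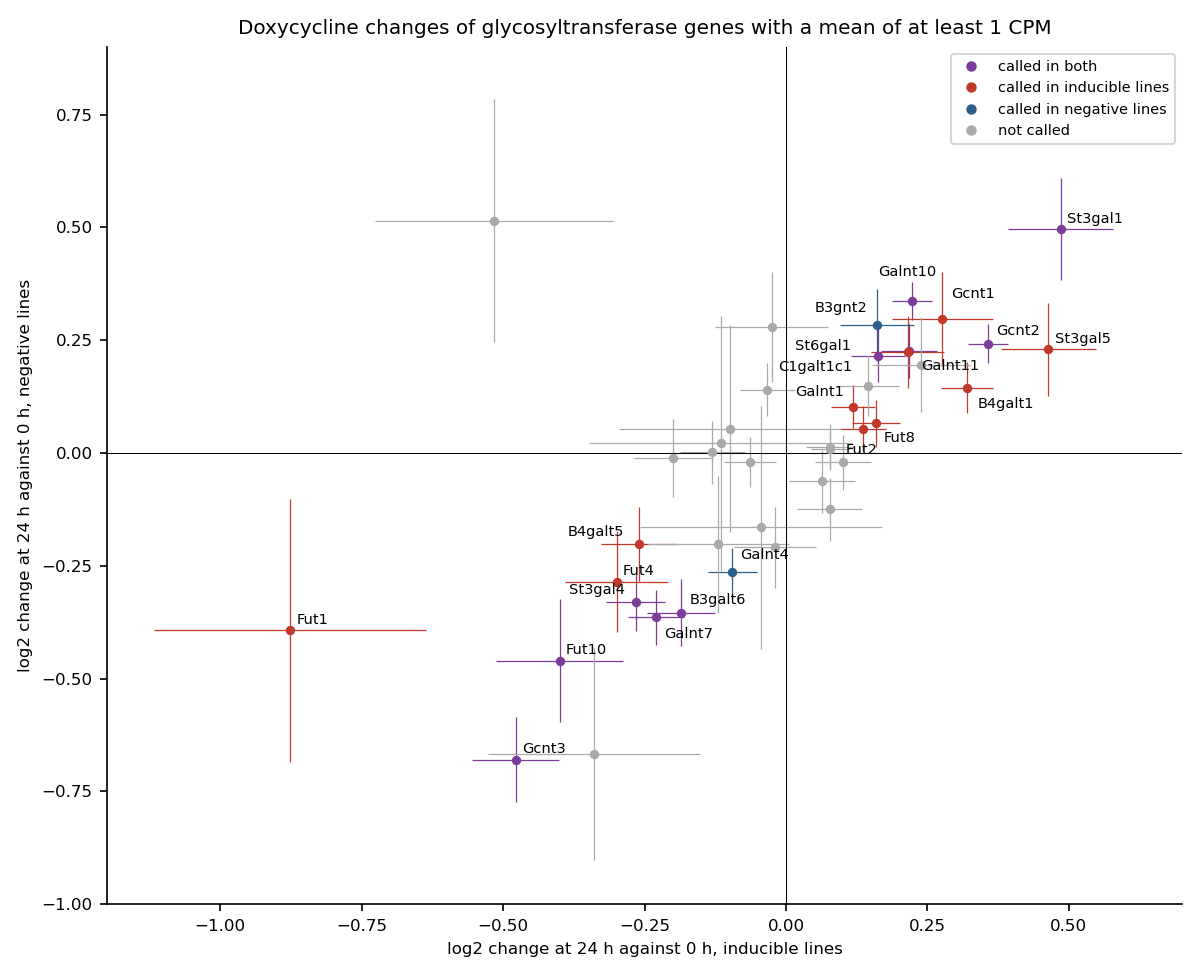
log2 change at 24 h against 0 h in the inducible lines (horizontal) and the negative lines (vertical) for the 41 members with a mean of at least 1 CPM, from the fit with the line as a block, with SE bars and colours for the genotype in which a member was called. Most points lie in the lower left or upper right quadrant, from Gcnt3 at the lower left to St3gal1 at the upper right. Galnt18 is an uncalled point at the upper left.

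Before doxycycline no member was called between the genotypes. edgeR called 0 of 57 members between inducible and negative lines at 0 h (0% of all features, 0 members at an unadjusted p below 0.05), and DESeq2 called 0 (background 0.02%), with 1 member at an unadjusted p below 0.05. The fit with the line as a random block also called 0.

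Genes that serve these enzymes were taken from 4 lists. Without the block, 4.93% of all features were called in either direction at 24 h in the inducible lines and 3.8% in the negative lines. Of 39 genes for nucleotide sugar synthesis and transport, edgeR without the block called 1 higher and 0 lower at 24 h in each genotype, in both cases Galk2, a GalNAc kinase, with 0.23 ± 0.05 log2 (SE; edgeR, adjusted p = 0.0342) in the inducible and 0.34 ± 0.07 log2 (SE; edgeR, adjusted p = 0.0155) in the negative lines. With the block 11 were higher and 2 lower in the inducible lines (28.2% and 5.13%, beside 14% and 10.2% of all features). Of the 39, 12 were higher and 2 lower in the negative lines (30.8% and 5.13%, beside 13.6% and 8.83%). The list's median change without the block was 0.02 and 0.14, beside 0 and 0.01 for all features.

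Of 31 tested enzymes that cap or branch the same chains, the inducible lines had 1 called higher and 2 lower at 24 h without the block (3.23% and 6.45%). The negative lines had 1 higher (3.23%). Of all features, 4.93% and 3.8% were called in either direction in the 2 genotypes. Chst4, which sulfates GlcNAc on mucin chains, rose 1.02 ± 0.14 log2 (SE; edgeR, adjusted p = 0.00187) in the inducible and 1.15 ± 0.17 log2 (SE; edgeR, adjusted p = 0.00395) in the negative lines, from 3.59 ± 0.429 CPM (SD, n = 3) and 3.02 ± 0.262 CPM (SD, n = 2). B3galnt2 (-0.28 ± 0.06 log2 SE, edgeR, adjusted p = 0.0145), which extends dystroglycan glycans, and B4galnt4 (-0.74 ± 0.16 log2 SE, edgeR, adjusted p = 0.0212), which makes LacdiNAc, fell in the inducible lines. With the block both were also called lower in the negative lines, B3galnt2 at -0.20 ± 0.05 log2 (SE; edgeR, adjusted p = 0.0162) and B4galnt4 at -0.74 ± 0.15 log2 (SE; edgeR, adjusted p = 0.00301). With the block 3 of the list were higher and 6 lower in the inducible lines (9.68% and 19.4%, beside 14% and 10.2% of all features). In the negative lines 5 were higher and 6 lower (16.1% and 19.4%, beside 13.6% and 8.83%). The list's median change without the block was -0.105 and -0.14.

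Of 18 tested glycan-degrading enzymes, none was called at 24 h in the inducible lines without the block (4.93% of all features called). In the negative lines 2 were higher (11.1%, beside 3.8% of all features called), among them the sialidase Neu1 (0.38 ± 0.10 log2 SE, edgeR, adjusted p = 0.0449). With the block Neu1 was also called higher in the inducible lines (0.18 ± 0.04 log2 SE, edgeR, adjusted p = 0.00586). With the block 7 of the list were higher and 2 lower in the inducible lines (38.9% and 11.1%, beside 14% and 10.2% of all features) and 10 higher and 0 lower in the negative lines (55.6% and 0%, beside 13.6% and 8.83%), with medians without the block of 0.13 and 0.20.

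Of 19 Golgi ion and tethering factors, 3 were called higher at 24 h in the inducible and 2 in the negative lines without the block, and 0 lower. These are 15.8% and 10.5%, beside 4.93% and 3.8% of all features called in either direction. Tmem165, a Golgi transporter needed for galactosylation, rose 1.68 ± 0.18 log2 (SE; edgeR, adjusted p = 0.000312) in the inducible and 1.81 ± 0.22 log2 (SE; edgeR, adjusted p = 0.00117) in the negative lines, the largest change among the called genes of the 4 lists. It was already called at 4 h, at 1.22 ± 0.18 log2 (SE; edgeR, adjusted p = 0.00902) in the inducible lines without the block and at 1.22 ± 0.12 log2 (SE; edgeR, adjusted p = 0.000111) in the negative lines with it. Golgb1 (0.23 ± 0.04 log2 SE, edgeR, adjusted p = 0.00776) and Golph3l (0.21 ± 0.06 log2 SE, edgeR, adjusted p = 0.0494) rose in the inducible lines and Cog4, a subunit of the tethering complex that retains Golgi enzymes, in the negative lines (0.22 ± 0.06 log2 SE, edgeR, adjusted p = 0.044). With the block Cog4 was also called higher in the inducible lines (0.16 ± 0.04 log2 SE, edgeR, adjusted p = 0.00684) and Golph3l in the negative lines (0.16 ± 0.05 log2 SE, edgeR, adjusted p = 0.0403). With the block 10 of the 19 were higher in the inducible lines (52.6%, beside 14% of all features) and 4 in the negative lines (21.1%, beside 13.6%).

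At 4 h the lists had few calls. Without the block Tmem165 was the one gene called, in the inducible lines, where 0.298% of all features were called. With the block 3 capping or branching enzymes were lower and 1 degrading enzyme and 2 Golgi factors higher in the inducible lines (background 3.05%). There were 1 nucleotide sugar gene and 1 capping or branching enzyme lower and 2 Golgi factors higher in the negative lines (background 2.04%). Mgat3, which adds the bisecting GlcNAc of N-glycans, was called lower in both genotypes, at -0.30 ± 0.05 log2 (SE; edgeR, adjusted p = 0.00587) and -0.39 ± 0.06 log2 (SE; edgeR, adjusted p = 0.00566), and the Golgi factors called in both were Tmem165 and Golph3l. No gene of the 4 lists was called for a difference between the genotypes, with or without the block.

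The summed duct markers were 10786 to 13251 TPM at 0 h, 10774 to 12373 TPM at 4 h and 14058 to 15997 TPM at 24 h in the inducible lines, and 11849 to 11888, 9995 to 11507 and 16013 to 16590 TPM in the negative lines. They were higher at 24 h in both genotypes, and their part in the changes above was not tested. In these bulk libraries fewer cells of a type and less RNA per cell cannot be told apart.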

How the data were processed

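Total RNA of 15 libraries (5 organoid lines at 3 times) was depleted of ribosomal RNA, with RIN values of 9.8 to 10, per the labels' protocols. Per the submitters' processing notes, the tools of the authors were kallisto 0.43.1 and DESeq2 1.18.1, and the genome was GRCm38. Each deposited file lists raw estimated counts of transcripts together with TPM values, which sum to 1000000 in a library, per the file headers and values. No source used here states strandedness.

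Estimated counts were summed per gene with GENCODE M21, which may not be the authors' release, and rounded; deposited TPM values were summed per gene for levels. The 1295 transcript identifiers without a match (0.56 to 0.59% of the counts of a library) were left out. The depth of 47915632 to 59411540 counts sets the counting error, and reads carry no molecular identifiers.

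Differences were tested by quasi-likelihood in edgeR 4.0.16 under R 4.3.3, after TMM scaling (factors 0.966 to 1.023), the default expression filter, which left 16462 features, and 6 group means over all 15 libraries. Benjamini-Hochberg adjustment ran over every tested feature of a comparison, with a threshold of 0.05. The model left 9 residual degrees of freedom and estimated a biological coefficient of variation of 0.157. CPM values are counts per 1000000 with TMM scaling. The script was tested on simulated data.

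Libraries of one line are paired across times, because the labels give the same line name at each time. Within a line, deviations from the group means correlated at 0.381 to 0.476 in inducible lines and 0.238 to 0.285 in negative lines, where a group of 2 mirrors itself. Adding the line as a replicate block left 6 degrees of freedom and lowered that coefficient to 0.058. The intervals of differences use the t distribution with these degrees of freedom. Genotypes at 0 h were also compared by limma-voom 3.58.1 that treated the line as random (correlation 0.417). Alternatives also included median-of-ratios scaling, DESeq2 1.42.0, no filter, only the compared groups, and each library left out; leaving out each whole line with the block was chosen after seeing the data.

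Named genes were the members called with or without the block, members with a stated role in Lewis or mucin glycans, the 10 highest by TPM, and up to 4 called genes per list; 1 called gene of these lists is not reported here by name. The members, lists and tests were chosen with earlier results of these data known. Promoter windows are from RefSeq, 250 bases before to 50 after a start, and a transcript was matched to a start within 150 bases.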

Additional observations from a re-analysis of the deposited data

Results flagged for a closer look

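The transcript Gcnt2-201 moved in opposite directions in the 2 genotypes. At 4 h it was higher than at 0 h by 0.567 to 1.08 TPM in the inducible lines and changed by -2.45 to -2.34 TPM in the negative lines, a difference between the mean changes of 3.27 TPM. At 24 h it was higher by 0.799 to 1.13 TPM in the inducible lines and changed by -1.93 to -1.92 TPM in the negative lines, a difference of 2.92 TPM. This difference was not tested at the level of transcripts.

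Among 6 levels checked over the 5 untreated lines, Fut7 had 1 library far from the others, 0.151 TPM in A217, which rests on 2 counts. Chance sets a library apart in this way in about 1 in 20 such groups.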

How the results depend on the processing

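The counts of called members depended on whether the line was a term. The replicate block gave 3 members at 4 h and 20 at 24 h in the inducible lines and 3 and 12 in the negative lines, and 0 for both differences of responses. Without the expression filter 1 member was called in the inducible lines at 24 h. With only the compared groups in the fit 0 were called there and 5 in the negative lines at 24 h, and DESeq2 called 5 and 2. For the fits without the filter or with only the compared groups, no share of all features called is given. Leaving out 1 library gave 0 to 7 calls in the inducible lines at 24 h and 0 to 0 in the negative lines at 24 h. With the block and a whole line left out, calls ranged from 0 to 1 (inducible, 4 h), 9 to 18 (inducible, 24 h), 0 to 3 (negative, 4 h) and 4 to 6 (negative, 24 h). Each such fit has fewer libraries, and other causes were not tested.

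Without the block, 2 of the named log2 changes changed sign when 1 library was left out, in 3 fits. St6gal1 in the inducible lines at 24 h ranged from -0.037 (without the 24 h library of A225) to 0.30, and Gcnt1 from -0.29 (without the 24 h library of A220) to 0.84, with -0.06 without the 0 h library of A217. Median-of-ratios scaling changed no call among the 43 named changes. All 20 levels in TPM stayed within 1 SD when counts were divided by the mean effective length instead. Members below 1 CPM, such as B3galt5, rest on few counts, so changes in them were hard to detect at this depth.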
